A study of Homo sapiens with 6 samples.

Results

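The genes of the mitotic spindle and of cell division were taken as 45 genes named by symbol, and all 45 were found among the 16390 genes listed in the count table of each library. They were divided by role into 10 cyclins, kinases and switch genes, 7 genes of the spindle checkpoint and the anaphase-promoting complex, 10 kinesins, 8 genes of the centromere, kinetochore and passenger complex, and 10 genes of the spindle, chromosome and cytokinesis. RNA of SW780, a bladder cancer line of human origin assigned by the study to the luminal type, was sequenced in 6 libraries. The 3 RC48 libraries came from SW780 described as stable and exposed to RC48 at 25 µg/ml, and the 3 Control libraries from the controls of these cells. RC48 is disitamab vedotin, an antibody that binds ERBB2 (HER2) and carries monomethyl auristatin E, which blocks the assembly of microtubules. The exposure time is not given in the sources used here, and a single cell line was compared. Nothing in the labels says that the replicates were separate cultures, so the p-values measure the spread between these libraries, which may be technical.

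Cells entering mitosis activate CDK1 through cyclin B and build a spindle of microtubules, along which kinesin motors work. Kinetochores assembled on centromeres bind the microtubules, and the spindle checkpoint holds back the anaphase-promoting complex, a ubiquitin ligase, until every chromosome is attached. Much of this gene set is transcribed in G2 and M phase under the DREAM and MMB-FOXM1 complexes, and agents that disturb microtubules are known to hold cells in mitosis through the checkpoint. In RNA from bulk cells, fewer cells in a phase of the cycle and less RNA per cell cannot be told apart.

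DREAM and MMB bind a promoter element named CHR, the cell cycle genes homology region, and NF-Y binds the CCAAT box that often lies upstream of it. Promoter windows from 250 bases before to 50 bases after the start were given by RefSeq (GRCh38.p14) for 39 of the 45 members, and none was matched for AURKA, FOXM1, TTK, UBE2C, BIRC5 and TPX2. Both strands were searched, and matches were allowed to overlap. CHR, searched as TTTGAA or TTTAAA, was in the window of 35 of the 39 members (89.7%) and of 21.8% of the 10695 tested genes with a window. Within the 100 bases before the start it was in 24 of 39 members (61.5%) and 7.07% of the tested genes. The CCAAT box, searched as CCAAT, was within those 100 bases in 29 members (74.4%) and 27.1% of the tested genes. An E2F-like site, searched as TTTCGCGC or TTTGGCGC, was in the whole window of 3 members (7.69%) and 2.50% of the tested genes.

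The 100 bases before the start are shown for the 4 members with the lowest and the 4 with the highest log2 fold change among the 32 members with 1 window, so that both ends of the range can be compared. Capitals mark CHR and CCAAT matches on either strand. The 4 with the lowest values were CENPE at chr4:103198344-103198443 (minus strand), KIF20B at chr10:89701490-89701589, NUF2 at chr1:163321854-163321953 and HMMR at chr5:163460532-163460631 (plus strand):
CENPE: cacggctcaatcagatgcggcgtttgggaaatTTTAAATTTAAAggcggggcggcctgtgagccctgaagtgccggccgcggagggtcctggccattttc
KIF20B: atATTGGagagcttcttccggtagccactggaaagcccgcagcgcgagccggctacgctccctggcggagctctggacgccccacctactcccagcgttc
NUF2: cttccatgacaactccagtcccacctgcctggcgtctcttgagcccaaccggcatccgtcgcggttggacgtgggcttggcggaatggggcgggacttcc
HMMR: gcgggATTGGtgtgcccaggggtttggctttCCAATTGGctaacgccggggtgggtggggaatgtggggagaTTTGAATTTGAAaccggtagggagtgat
The 4 with the highest values were KIF2C at chr1:44739737-44739836, CDCA8 at chr1:37692416-37692515, CDC20 at chr1:43358881-43358980 and PLK1 at chr16:23678789-23678888, all on the plus strand:
KIF2C: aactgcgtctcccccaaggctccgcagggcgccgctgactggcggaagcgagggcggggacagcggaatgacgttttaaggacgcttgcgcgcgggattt
CDCA8: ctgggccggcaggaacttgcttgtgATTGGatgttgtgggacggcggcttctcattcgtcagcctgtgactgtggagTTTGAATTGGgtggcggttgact
CDC20: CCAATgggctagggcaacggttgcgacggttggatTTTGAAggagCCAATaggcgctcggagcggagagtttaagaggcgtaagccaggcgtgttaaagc
PLK1: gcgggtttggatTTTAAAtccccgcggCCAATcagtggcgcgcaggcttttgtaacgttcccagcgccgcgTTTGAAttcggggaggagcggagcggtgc
CHR matches were found at both ends of the range, in CENPE and HMMR and also in CDCA8, CDC20 and PLK1. KIF20B, NUF2 and KIF2C held none in these bases. In HMMR and CDCA8 a CCAAT match overlapped another match. The median log2 fold change was -0.49 for the 24 members with CHR in the 100 bases and -0.60 for the 15 without it, given as a description with no test. The order turned with GC correction, to -0.38 with it and -0.36 without it, and in the whole window, where the 35 members with CHR had a median of -0.51 and the 4 without it -0.37.

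Library totals ranged from 16453233 to 17988030 estimated counts, and the lowest count of any member in any library was 159. Values are given as CPM, counts relative to a library size scaled by TMM factors of 0.924 to 1.03. The luminal markers GATA3, FOXA1 and ERBB2 were read in every library, with CPM of 87.7 to 308 over all of them. GATA3 and ERBB2 overlapped between the groups, whereas FOXA1 was at 147 CPM in Control and 87.7 to 123 CPM in RC48 (edgeR adjusted p = 0.194). KRT20, also a luminal marker, was low, at 1.94 to 2.03 CPM in Control and 0.486 to 1.00 CPM in RC48. Its log2 fold change was -1.55 (edgeR adjusted p = 0.0489). Of the basal markers, CD44 was at 286.5 to 338 CPM, while KRT5 and KRT6A were at 2.63 to 11.3 CPM. Of the 12 leukocyte markers 8 were listed, with a summed level of 5.48 to 6.42 CPM in Control and 8.02 to 10.99 CPM in RC48, most of it LAPTM5. PTPRC, which defines leukocytes, was at 0 in every Control library and at 0.0607 CPM or less in RC48. Fibroblast and endothelial markers summed to 300.4 to 338.7 CPM in Control and 401.5 to 485.2 CPM in RC48, most of it COL3A1. The fibroblast markers DCN and PDGFRB were at 0.118 CPM or less in every library. COL1A1 was higher in RC48, with 9.39 to 10.4 CPM in Control and 12.2 to 19.2 CPM in RC48. The endothelial marker PECAM1 went the other way, with 18.3 to 19.7 CPM in Control and 12.9 to 15.1 CPM in RC48, and VWF had 6.66 to 8.77 CPM and 4.34 to 7.59 CPM. The part of these markers in the results was not tested. KIF4B and PTTG2, near-identical copies of KIF4A and PTTG1, stayed at or under 0.520 CPM.

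RC48 replicate 1 stood apart from the other libraries. The log2 ratio of each library to the Control mean was set against the GC content of each gene's transcripts. Across 13000 genes, which are not independent replicates, Spearman's rho was 0.755 in RC48 replicate 1, -0.0186 in replicate 2 and 0.585 in replicate 3. The transcripts of the members had a median GC content of 43.2%, against 49.3% over all genes tested. Log2 fold changes of the members are therefore also given with the loess trend of each library on GC content removed, called GC corrected below. The trend removed was that of the library relative to the mean trend of the libraries. Control replicates 1 and 2 were the closest pair, with a chi-square per degree of freedom of 1.47, against 9.04 to 126 for the other pairs within a group.

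With edgeR's quasi-likelihood test, 0 of the 45 members had an adjusted p (Benjamini-Hochberg) under 0.05, where 288 of 13055 genes (2.21%) were called, 258 higher and 30 lower (0.230%). Lower levels in RC48 were nonetheless the common pattern among the members. The log2 fold change was below 0 for 40 members and above 0 for PLK1, AURKB, CDC25B, CDC20 and CDCA8, all of which turned below 0 after GC correction. The median over the members was -0.51, against 0.02 over all genes tested. At an unadjusted p under 0.05 were 19 members, all lower, as were 7.21% of all genes. Every RC48 library was below every Control library for 30 members and for 14.1% of all genes, and for these 30 the two-sided exact permutation test gave p = 0.1, the smallest that 3 against 3 allows. No member had every RC48 library above every Control library. The lowest adjusted p in edgeR was 0.145, for MKI67.

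**Figure D1:**
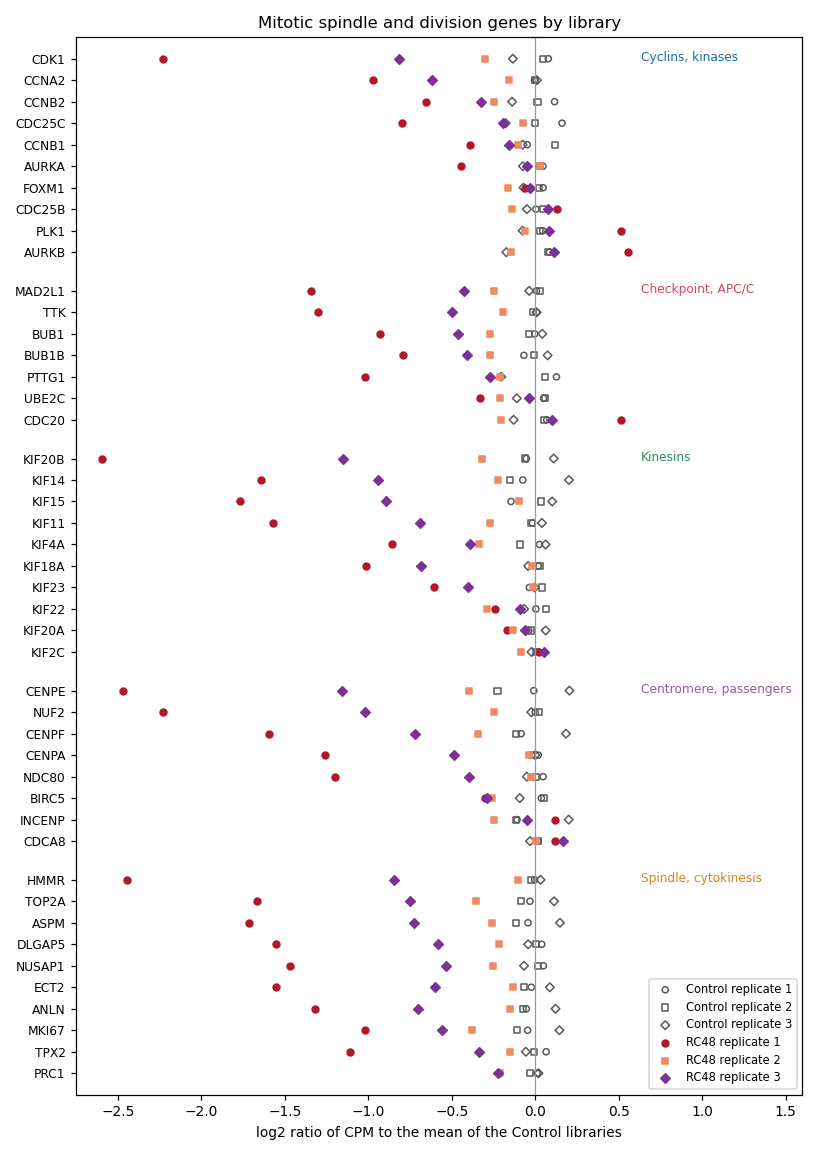
Log2 ratio of CPM to the mean of the Control libraries for each of the 45 members, by role and ordered by log2 fold change. Each symbol is 1 library, open for Control and filled for RC48. In 35 members RC48 replicate 1 was the lowest of the RC48 libraries, and in 34 members replicate 2 was the highest. The shares of all genes for these were not computed.

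After GC correction, 11 of the 45 members passed the adjusted threshold in edgeR, all lower, where 3.80% of 13000 genes were called lower. The direction of the calls over all genes shifted with the correction, from 258 higher and 30 lower to 583 higher and 494 lower. The members called were CCNA2, BUB1, BUB1B, KIF4A, KIF11, KIF14, CENPE, CENPF, BIRC5, TOP2A and MKI67. All 45 members had a log2 fold change below 0, with a median of -0.36 against -0.02 over all genes, and 34 had every RC48 library below every Control library (19.5% of all genes).

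**Figure D2:**
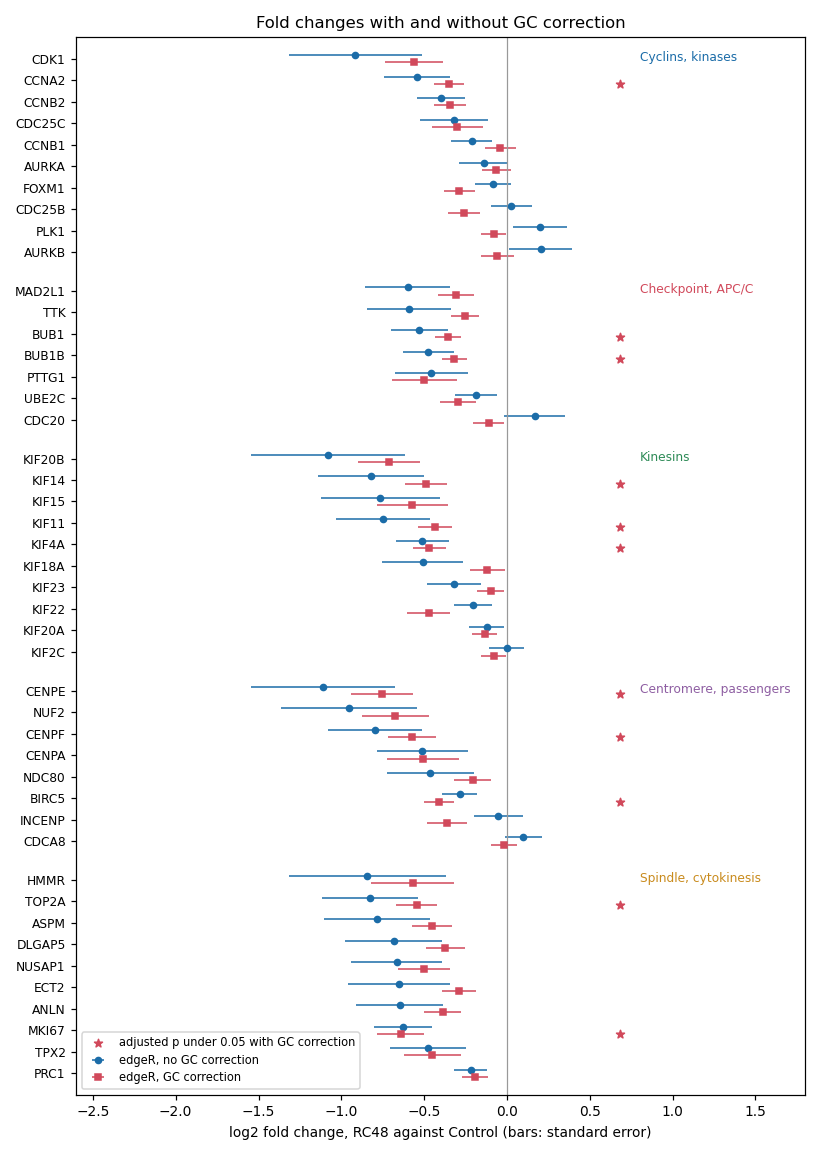
Log2 fold change of RC48 against Control for the 45 members, with bars of 1 standard error, without GC correction (circles) and with it (squares). Stars mark the 11 members with an adjusted p under 0.05 after correction, and all 45 squares lie below 0.

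The share of a library's counts that fell on the 45 members was 0.746%, 0.736% and 0.766% in Control replicates 1, 2 and 3. It was 0.404%, 0.642% and 0.561% in RC48 replicates 1, 2 and 3. All 3 RC48 libraries lay below the Control libraries, and replicate 1 lay farthest below. The median log2 ratio of the members to the Control mean was -1.01 in RC48 replicate 1, -0.21 in replicate 2 and -0.41 in replicate 3, and after GC correction it was -0.53, -0.25 and -0.29. Over all genes the uncorrected medians were 0.03, 0.01 and -0.003. RC48 replicate 1 was below every Control library in 37 members (43.6% of all genes), replicate 2 in 36 (29.1%) and replicate 3 in 35 (38.5%). The order of replicate 1 below 3 below 2 was found in 33 members, and the share of all genes with it was not computed. All genes were also divided into 10 groups by GC content. The group of lowest GC content, with 13 members, had the same order, with medians of -1.04, 0.02 and -0.41 in replicates 1, 2 and 3. In the group of highest GC content, with 0 members, the medians were 0.68, 0.01 and 0.25. The coefficient of variation of the members had a median of 4.49% in Control and 28.0% in RC48, against 6.97% and 19.96% over all genes.

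Read against GC content, the 24 members under 45% had a median log2 fold change of -0.67 and the 21 at or above it -0.19, whereas all genes had medians of -0.28 and 0.17 on the same sides. In RC48 replicate 1 the medians of the members were -1.55 and -0.24, and in replicate 3 -0.69 and -0.06. In replicate 2 they were -0.23 and -0.16, with 0.01 for all genes on either side. Spearman's rho between GC content and log2 ratio over the 45 members was 0.882, 0.209 and 0.879 in replicates 1, 2 and 3, and 0.407, 0.241 and 0.452 after correction. These values share the libraries and are given as a description. How much of the lower level of the AT-rich members came from the trend of the library and how much from the cells was not tested.

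**Figure D3:**
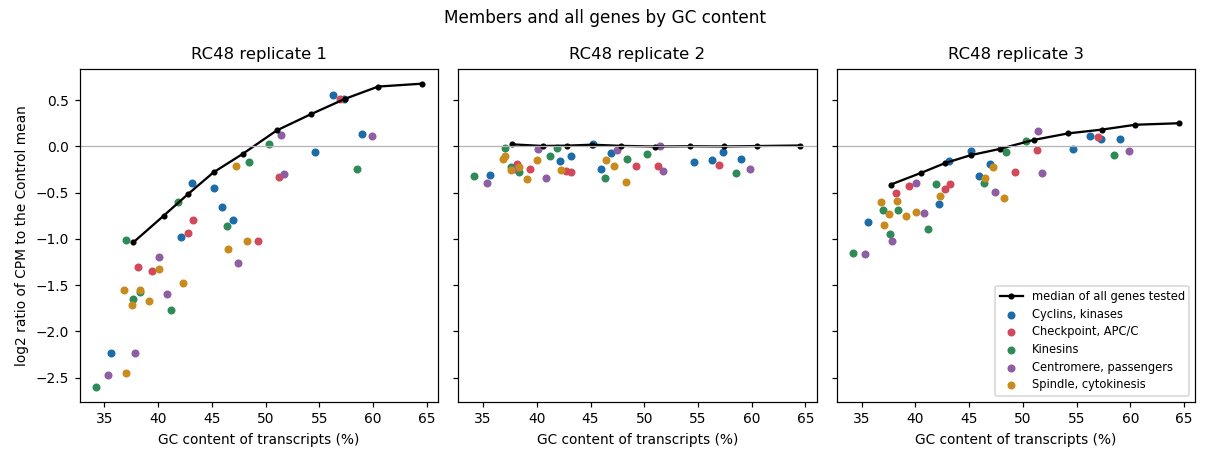
Log2 ratio of CPM to the Control mean against the GC content of the transcripts, 1 panel for each RC48 library. Points are the 45 members, coloured by role, and the line joins the medians of all genes tested in 10 groups of GC content. In RC48 replicates 1 and 3 the points follow the slope of the line and most lie below it, and in replicate 2 the line is flat near 0.

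Among the cyclins, kinases and switch genes, no member passed the test, where 0.230% of all genes were called lower. The group's median was -0.18 on the log2 scale, the smallest difference of the 5 groups, and -0.27 after GC correction. In 4 of 10 (CCNA2, CCNB1, CCNB2 and CDK1) every RC48 library was below every Control library, as in 14.1% of all genes. After GC correction this held in 5 (19.5% of all genes), namely CCNA2, CCNB2, CDK1, CDC25B and FOXM1, and no longer in CCNB1. CDK1, the kinase that drives entry into mitosis, had the lowest value. Its level was 151, 148 and 131 CPM in Control and 30.6, 116 and 81.3 CPM in RC48, so every RC48 library was lower and replicate 1 by far the most. The log2 fold change was -0.91 ± 0.40 (SE, n = 3 and 3, edgeR adjusted p = 0.265), and -0.56 ± 0.18 after GC correction (adjusted p = 0.0876). CCNB1, which encodes cyclin B1, the activating partner of CDK1, was read at 299, 335 and 293 CPM in Control and 235, 287 and 277 CPM in RC48. The groups did not overlap, though the gap between Control replicate 3 and RC48 replicate 2 was narrow, and the log2 fold change was -0.21 ± 0.13 (edgeR adjusted p = 0.328). After GC correction it was -0.04. AURKA, a kinase of the centrosome and spindle pole, was at 188, 185 and 173 CPM in Control and 134, 185 and 176 CPM in RC48. Only RC48 replicate 1 left the Control range, and the log2 fold change was -0.14 ± 0.15 (edgeR adjusted p = 0.536) and -0.07 after GC correction.

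AURKB, the catalytic kinase of the chromosomal passenger complex, had the highest value of the group before GC correction. It was at 93.7, 93.2 and 78.4 CPM in Control and 130, 79.8 and 95.6 CPM in RC48, with overlap between the groups. The log2 fold change was 0.20 ± 0.19 (edgeR adjusted p = 0.4996), and it turned to -0.06 after GC correction. PLK1, a kinase of mitotic entry and centrosome maturation, was close to it at 0.20 and turned to -0.08, and CDC25B, a phosphatase that activates CDK1, turned from 0.03 to -0.26. Their transcripts had GC contents of 56.3%, 57.3% and 59.0%. CCNA2 (cyclin A2) was the member of the group called after GC correction, where 3.80% of all genes were called lower. It was at 104, 104 and 104 CPM in Control and 52.9, 93.2 and 67.7 CPM in RC48, without overlap, at -0.54 ± 0.20 before and -0.35 after the correction (edgeR adjusted p = 0.0476). CCNB2 (cyclin B2) was at -0.40 before and -0.34 after it. FOXM1, the transcription factor behind much of the G2 and M programme, was at -0.09 before and -0.29 after it, and CDC25C, another activator of CDK1, at -0.32 and -0.30.

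The checkpoint and anaphase-promoting complex genes had a median log2 fold change of -0.48, and -0.31 after GC correction. Before it, 6 of 7 were below 0, 0 were called (0.230% of all genes were, lower) and 5 had every RC48 library below every Control library (14.1%). MAD2L1, which encodes the checkpoint protein MAD2, had the lowest value before the correction and PTTG1 after it. MAD2L1 was at 101, 102 and 97.6 CPM in Control and 39.5, 84.3 and 74.4 CPM in RC48. All 3 RC48 libraries lay below Control, with a log2 fold change of -0.60 ± 0.26 (edgeR adjusted p = 0.258) and -0.31 after GC correction. TTK (MPS1), the kinase that starts checkpoint signalling, was at -0.59 ± 0.25, and -0.25 after GC correction. BUB1 and BUB1B, kinetochore proteins of the checkpoint, both passed after the correction, where 3.80% of all genes were called lower. BUB1 was at 137, 134 and 141 CPM in Control and 72.0, 114 and 99.7 CPM in RC48, and its log2 fold change was -0.53 ± 0.17 before and -0.36 after it (edgeR adjusted p = 0.0268). BUB1B was at 107, 111 and 118 CPM in Control and 64.6, 92.5 and 84.1 CPM in RC48, at -0.48 ± 0.15 before and -0.32 after it (edgeR adjusted p = 0.0361). Neither gene had an overlap between the groups of libraries.

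PTTG1, the securin that restrains separase, had the highest Control level of all members per length, with a mean of 532 TPM, followed by UBE2C, the ubiquitin-conjugating enzyme of the anaphase-promoting complex, with 518 TPM. In CPM, PTTG1 was at 135, 129 and 108 in Control and 61.2, 107.3 and 102.6 in RC48. RC48 replicate 2 lay just under the lowest Control library, and the log2 fold change was -0.46 ± 0.22 (edgeR adjusted p = 0.281), and -0.50 after GC correction. UBE2C was at 139, 139 and 124 CPM in Control and 107, 116 and 131 CPM in RC48, and RC48 replicate 3 was within the Control range. Its log2 fold change was -0.19 before and -0.30 after the correction. CDC20, which activates the anaphase-promoting complex, went the other way in RC48 replicate 1, with 211, 209 and 184 CPM in Control and 287, 175 and 216 CPM in RC48. The groups overlapped, with a log2 fold change of 0.17 ± 0.19 (edgeR adjusted p = 0.561) that turned to -0.11 after GC correction.

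All 10 kinesins had a log2 fold change below 0 in edgeR with TMM, with a median of -0.51, and -0.45 after GC correction. None was called, where 0.230% of all genes were called lower. In 6 every RC48 library was below every Control library (14.1% of all genes), and KIF2C turned above 0 in 4 of the 26 alternative analyses. KIF20B, a motor of late cytokinesis, was the lowest of them, at 73.9, 73.5 and 82.8 CPM in Control and 12.7, 61.6 and 34.5 CPM in RC48. The RC48 libraries spread over a wide range, all below Control, and the log2 fold change was -1.08 ± 0.46 (edgeR adjusted p = 0.259). After GC correction it was -0.71 ± 0.19 (adjusted p = 0.0523). Its transcripts had the lowest GC content of the members, 34.2%. KIF2C, a depolymerase that removes tubulin at centromeres, was the highest, with 136, 135 and 132 CPM in Control and 136, 127 and 140 CPM in RC48. Its groups overlapped and the log2 fold change was -0.001 ± 0.11 (edgeR adjusted p = 0.993), and -0.08 after GC correction.

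The kinesins with the highest Control level per length were KIF22, a motor on chromosome arms, and KIF20A, a motor of the central spindle. KIF22 was at 135, 140 and 128 CPM in Control and 114, 110 and 126 CPM in RC48, and KIF20A at 188, 189 and 201 CPM against 171, 176 and 184 CPM. Neither overlapped, but the differences were small, at -0.20 ± 0.11 and -0.12 ± 0.11 on the log2 scale. KIF22, with a GC content of 58.5%, was at -0.47 after GC correction (edgeR adjusted p = 0.0608), and KIF20A at -0.14.

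After GC correction 3 kinesins were called, all lower, where 3.80% of all genes were called lower. None of them had an overlap between the groups (14.1% of all genes had every RC48 library lower). KIF11 (Eg5), which pushes the spindle poles apart, was at 152, 151 and 158 CPM in Control and 51.6, 127 and 95.1 CPM in RC48. Its log2 fold change was -0.75 ± 0.29 before and -0.43 after the correction (edgeR adjusted p = 0.0371). KIF14, a motor of cytokinesis, was at 58.2, 55.3 and 70.5 CPM in Control and 19.6, 52.5 and 31.9 CPM in RC48, at -0.82 ± 0.32 before and -0.49 after it (edgeR adjusted p = 0.0469). In KIF14 the margin between RC48 replicate 2 and Control replicate 2 was narrow. KIF4A, a chromosome-bound motor, was at 95.6, 88.3 and 98.1 CPM in Control and 51.9, 74.5 and 71.6 CPM in RC48, at -0.51 ± 0.16 before and -0.47 after it (edgeR adjusted p = 0.0251). KIF15, a spindle motor, was at -0.76 before and -0.57 after the correction. KIF18A, which dampens chromosome movement, moved from -0.51 to -0.12, and KIF23, of the central spindle, from -0.32 to -0.10.

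In the centromere, kinetochore and passenger complex group the median log2 fold change was -0.49, and -0.46 after GC correction. Before it, 7 of 8 were below 0 and 0 were called (0.230% of all genes were, lower). In 5 every RC48 library was below every Control library (14.1% of all genes). CENPE, a kinetochore motor that brings chromosomes to the spindle equator, had the lowest log2 fold change of all members. It was at 74.6, 64.2 and 86.6 CPM in Control and 13.5, 57.1 and 33.7 CPM in RC48, every RC48 library below Control. The fold change on the log2 scale was -1.11 ± 0.44 (edgeR adjusted p = 0.238), and -0.76 ± 0.19 after GC correction (adjusted p = 0.0425). NUF2, part of the NDC80 complex that holds microtubules, was at -0.95 ± 0.41 before and -0.67 after the correction, and NDC80 itself at 109, 106 and 102 CPM in Control and 46.0, 104 and 80.2 CPM in RC48. For NDC80, RC48 replicate 2 lay within the Control range, and the log2 fold change was -0.46 ± 0.26 (edgeR adjusted p = 0.319), and -0.21 after GC correction.

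BIRC5 (survivin), a subunit of the passenger complex, differed from most members in that the RC48 libraries lay close together before GC correction. It was at 175, 177 and 160 CPM in Control and 138, 142 and 139 CPM in RC48, with a log2 fold change of -0.29 ± 0.11 (edgeR adjusted p = 0.226). After GC correction it was -0.41 ± 0.09 (adjusted p = 0.0261), and the log2 ratios to the Control mean lay farther apart. They were -0.53, -0.30 and -0.40 in RC48 replicates 1, 2 and 3. CDCA8 (borealin), of the same complex, was at 73.3, 73.1 and 70.8 CPM in Control and 78.6, 72.7 and 81.2 CPM in RC48. Its log2 fold change was 0.10 ± 0.11 (edgeR adjusted p = 0.572) and turned to -0.02 after GC correction. INCENP, the scaffold of the complex, moved from -0.05 to -0.36 with the correction, at a GC content of 59.9%. CENPF, a large kinetochore protein, was at 250, 244 and 301 CPM in Control and 87.6, 208 and 161 CPM in RC48, without overlap. Its log2 fold change was -0.80 ± 0.28, and -0.57 after GC correction, where it was called (edgeR adjusted p = 0.0456). CENPA, the histone variant of centromeres, was at -0.51 before and after it.

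The spindle, chromosome and cytokinesis genes had the lowest median log2 fold change of the groups before GC correction, -0.66. After it the median was -0.45, level with the kinesins and the centromere group. All 10 had every RC48 library below every Control library, before and after the correction (14.1% and 19.5% of all genes). Before it 0 were called, where 0.230% of all genes were called lower. TOP2A, the topoisomerase that untangles sister chromatids, was the most abundant member in CPM, at 657, 632 and 726 in Control and 211, 526 and 398 in RC48. Each RC48 library was below the lowest Control library by over 100 CPM, with a log2 fold change of -0.83 ± 0.29 (edgeR adjusted p = 0.211), and -0.55 ± 0.12 after GC correction (adjusted p = 0.0303). TPX2, which nucleates spindle microtubules and activates AURKA, was at 441, 418 and 405 CPM in Control and 195, 379 and 333 CPM in RC48, with a log2 fold change of -0.48 ± 0.23 (edgeR adjusted p = 0.281) and -0.45 after GC correction. HMMR, a microtubule-binding protein of the spindle pole, was at 99.0, 97.5 and 101.5 CPM in Control and 18.2, 92.6 and 55.3 CPM in RC48. In RC48 replicate 2 it was just below Control and in replicate 1 far below, which gave -0.84 with the widest error of the members, 0.47, and -0.57 after GC correction.

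PRC1, which crosslinks microtubules of the central spindle, had the smallest difference of this group and the most even one. It was at 275, 267 and 277 CPM in Control and 235, 235 and 234 CPM in RC48, with an SD of 0.783 CPM over the RC48 libraries. The log2 fold change was -0.22 ± 0.10 (edgeR adjusted p = 0.273), and -0.19 ± 0.08 after GC correction (adjusted p = 0.161). The corrected log2 ratios to the Control mean lay farther apart, at -0.10, -0.26 and -0.21 in RC48 replicates 1, 2 and 3. MKI67, the Ki-67 antigen that coats mitotic chromosomes, is described for its lowest adjusted p and was chosen after its values were seen. It was at 578, 553 and 660 CPM in Control and 295, 459 and 405 CPM in RC48, without overlap. The log2 fold change of -0.63 ± 0.18 changed little with GC correction, to -0.64 ± 0.14 (edgeR adjusted p = 0.0267), at a GC content of 48.3%. Of the other spindle proteins, ASPM was at -0.78 before and -0.45 after GC correction, DLGAP5 at -0.68 and -0.37, and NUSAP1 at -0.67 and -0.50. ECT2 and ANLN, which set up the cleavage furrow, were both at -0.65 before it and at -0.29 and -0.39 after it.

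**Figure D4:**
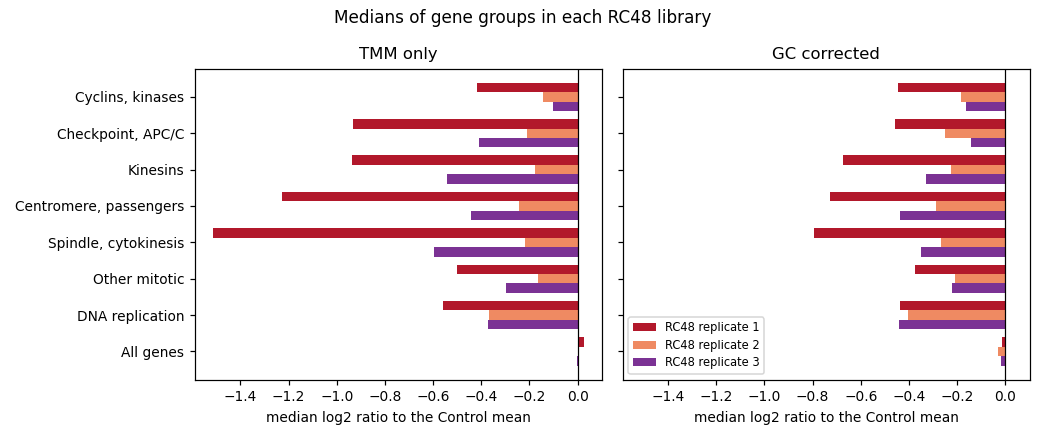
Median log2 ratio to the Control mean in each RC48 library for the 5 groups of members, 99 other mitotic genes, 41 DNA replication genes and all genes tested, with TMM only (left) and GC corrected (right). In the spindle group the median in RC48 replicate 1 was -1.51 with TMM only and -0.79 after correction.

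The 99 other mitotic genes, not among the 45, had a median log2 fold change of -0.30 (-0.25 after GC correction), with 82 below 0. Of them 0 were called, where 0.230% of all genes were called lower, and 51 were without overlap and lower in RC48, against 14.1% of all genes. After GC correction 17 were called, all lower, where 3.80% of all genes were. Medians are given before and then after the correction, and the lowest and highest genes of each list before it. The 29 other kinetochore and centromere genes had medians of -0.49 and -0.27, from CENPH, of the inner kinetochore, at -0.95 to PMF1, of the MIS12 complex, at 0.26. The 20 genes listed as other kinases and entry regulators also held checkpoint and kinetochore genes, which are neither. These were BUB3, MAD1L1, TRIP13, ZW10, ZWILCH, KNTC1 and ZWINT. The medians of the whole list were -0.37 and -0.29, from PBK, a mitotic kinase, at -0.89 to MAD1L1, the checkpoint partner of MAD2, at 0.30. The 20 other spindle and cytokinesis genes had medians of -0.27 and -0.25, from DEPDC1 at -0.68 to KIF18B, a plus-end motor, at 0.10. The 14 genes listed under condensin, cohesin release and chromatid separation included PLK4, a centriole kinase. Their medians were -0.32 and -0.35, from SMC2, a condensin ATPase, at -0.85 to NCAPH2, of condensin II, at 0.18. The 16 genes listed for the anaphase-promoting complex included FZR1, an activator, and UBE2S, a ubiquitin-conjugating enzyme, which are not subunits. These 16 had a median of -0.06 that turned to 0.05 after the correction, with 6 above 0 before and 10 after it. None was called in either fit at an adjusted p under 0.05 in edgeR, ANAPC2 alone was at an unadjusted p under 0.05 before the correction, and values ran from CDC27 at -0.43 to ANAPC2 at 0.71.

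How many members were called depended on the analysis, and the direction mostly did not. Of 26 alternatives 14 called no member and 12 called at least 1. The 35 members called by at least 1 included 34 called by limma's voom with quality weights, a fit that called 8018 of 13055 genes. The share of all genes called by at least 1 alternative was not computed. With limma on log2(TPM+1), the scale and tool of the study, 30 members were called lower, where 15.1% of all genes were. TPM of RC48 replicate 2 was not analysed here, so this fit held 5 libraries, and its RC48 libraries were replicates 1 and 3, those with a GC trend. With log2(TPM+0.1) the fit called 15 members lower (6.85% of all genes), and the median log2 fold change of all genes was -0.11. edgeR without RC48 replicate 2 called 28 members lower (14.1% of all genes), and without RC48 replicate 1 it called 8 lower (2.21%). With GC correction both of these fits called 22 (8.61% without replicate 2 and 7.04% without replicate 1). Leaving out RC48 replicate 3 or any Control library left 0 called, with or without GC correction. limma's voom with quality weights called 33 lower, where 31.0% of all genes were, and CDCA8 higher. Its weights were 0.0968, 0.262 and 7.64 for RC48 replicates 1, 2 and 3. The RC48 side of this fit thus rested mostly on replicate 3, which had a GC trend. DESeq2 called 1 lower, MKI67 (1.59%). GC content taken over all transcripts of a gene gave 7 (3.20%). A block for the replicate number, by which no pairing of the samples was seen, gave 3 (0.414%), and 12 with GC correction (2.77%). The direction held in all 26 alternatives for 37 members, and KIF2C, PLK1, AURKB, CDC25B, CDC20, CDCA8, INCENP and CCNB1 changed sign in at least 1.

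**Figure D5:**
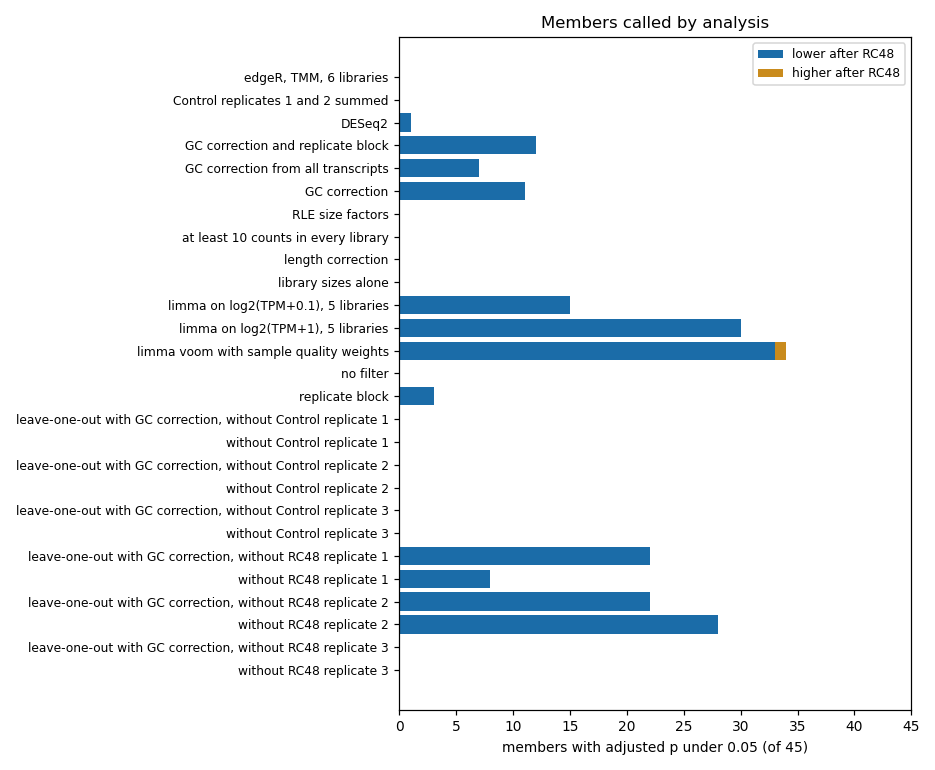
Number of the 45 members with an adjusted p under 0.05 under each analysis, coloured by direction. The bars reach 34 for limma's voom with quality weights, 30 for limma on log2(TPM+1) and 28 for edgeR without RC48 replicate 2, and are at 0 for edgeR with all 6 libraries and TMM.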

How the data were processed

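Total RNA of SW780 cells was sequenced in 6 libraries, 3 Control and 3 RC48. Reads were filtered by the authors with SOAPnuke and mapped with Bowtie2, and genes were counted with RSEM (hg38 in the submitters' processing notes), and versions are not given in the sources used here. The deposited estimated counts are not normalized by the authors, and the deposited TPM values are scaled by the authors for length and library size. TPM of RC48 replicate 2 was not analysed here.

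After rounding of the estimated counts to integers, low genes were removed by filterByExpr and libraries scaled by TMM. RC48 was compared with Control over all genes by edgeR's quasi-likelihood test without covariates (R 4.3.3, edgeR 4.0.16), with Benjamini-Hochberg adjustment and a threshold of 0.05. Fold changes of limma are on the log2(TPM + pseudocount) scale, with a pseudocount of 1 or 0.1, which understates changes of low genes. The GC correction removed, as an offset, the loess trend (span 0.3) of each library's log2 CPM on GC content, relative to the mean trend of the libraries. GC content was the median over the GENCODE v29 transcripts of a gene that match RefSeq, which 16115 genes had. Where none matched, the median over all transcripts of the gene was taken. In all, 16289 of 16390 genes (99.4%) had a GC content. Alternatives were DESeq2 1.42.0, limma 3.58.1 on TPM and by voom, RLE factors, no scaling beyond library size, all genes kept, genes kept only with 10 counts or more per library, a length correction, a replicate block, Control replicates 1 and 2 summed, and each library left out. GC content over all transcripts was added after seeing the data. The procedure was also run on simulated counts, with a dispersion (spread between libraries) set below the 0.0333 estimated for these data. That run does not show how the procedure performs at the spread of these libraries.

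Members, lists and tests were chosen with earlier results of these data known. CPM of every library is given for members called by edgeR with TMM (none), for the 2 with the highest mean Control TPM of each role, and for the lowest and highest log2 fold change of each role, and the rest by counts. Members called after GC correction also have it, which was chosen after their values were seen. Of other lists, the lowest and highest values and the genes called before GC correction are given, and those called after it by count. Promoter sequences came from RefSeq. Library depth was 16453233 to 17988030 counts, and the lowest count of a member was 159.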

Additional observations from a re-analysis of the deposited data

How the results depend on the processing

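The median log2 fold change of the members was below 0 in every alternative run, from -0.874 (limma on log2(TPM+0.1), 5 libraries) to -0.287 (GC correction without RC48 replicate 1). Over the same fits the median of all genes ran from -0.114, with log2(TPM+0.1), to 0.0388. The cause of the changes below was not tested. The number of members called was 0 in edgeR with 6 libraries. It was 1 with DESeq2, 3 with the replicate block, 12 with GC correction and replicate block, 11 with GC correction, 7 with GC content from all transcripts, 15 and 30 with limma on log2(TPM+0.1) and log2(TPM+1), and 34 with voom. Leaving out 1 library, without or with GC correction, gave 0 to 28, namely 8 and 22 without RC48 replicate 1, 28 and 22 without RC48 replicate 2, and 0 otherwise. Over all genes, 288 calls became 744 with DESeq2, 1077 with GC correction, 961 with GC content from all transcripts, 851 with GC correction and replicate block, 331 with the replicate block alone, 1311 and 2711 with limma on TPM, 8018 with voom and 86 with Control replicates 1 and 2 summed. They were 68 to 3726 without 1 library, without or with GC correction, and the highest was without RC48 replicate 2. No pairing by replicate number was seen, as deviations of same-numbered samples correlated at 0.026, -0.161 and -0.0148. These deviations also hold the GC trends of the RC48 libraries, so they cannot exclude a pairing. A block on the replicate numbers gave KIF20B, CENPE and TOP2A as called.

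The members that changed sign in at least 1 alternative are given with their log2 fold change in the fits in which they did, and with the range over fits that left out 1 library. KIF2C was at 0.0011 with Control replicates 1 and 2 summed, 0.0401 with voom, -0.1161 to 0.0371 over the fits without 1 library. PLK1 was at -0.0799 with GC correction and replicate block, -0.0696 with GC content from all transcripts, -0.0795 with GC correction, -0.112 to 0.3107 over the fits without 1 library. AURKB was at -0.0601 with GC correction and replicate block, -0.0437 with GC content from all transcripts, -0.0594 with GC correction, -0.1352 to 0.3493 over the fits without 1 library. CDC25B was at -0.2658 with GC correction and replicate block, -0.2235 with GC content from all transcripts, -0.2601 with GC correction, -0.0377 with library sizes alone, -0.0159 with limma on log2(TPM+0.1), -0.0157 with limma on log2(TPM+1), -0.3146 to 0.1016 over the fits without 1 library. CDC20 was at -0.1122 with GC correction and replicate block, -0.1057 with GC content from all transcripts, -0.1103 with GC correction, -0.1695 to 0.3202 over the fits without 1 library. CDCA8 was at -0.019 with GC correction and replicate block, -0.018 with GC correction, -0.0638 to 0.1408 over the fits without 1 library. INCENP was at 0.0275 with voom, -0.4322 to 0.0562 over the fits without 1 library. CCNB1 was at -0.2724 to 0.029 over the fits without 1 library. The other 37 members kept their direction in all 26 alternatives.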

Other observations

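The 41 genes of DNA replication, listed for comparison, had median log2 ratios to the Control mean of -0.56, -0.37 and -0.37 in RC48 replicates 1, 2 and 3. Their median log2 fold change was -0.39, with 37 below 0, and 28 had every RC48 library below every Control library (14.1% of all genes). With edgeR, 2 passed the adjusted threshold, both lower: MCM6, a subunit of the replicative helicase, at -0.65 ± 0.11 (edgeR adjusted p = 0.031) and CDC6, which loads the helicase at origins, at -0.61 ± 0.12 (edgeR adjusted p = 0.0429). MCM6 was at 229, 224 and 214 CPM in Control and 130, 149 and 147 CPM in RC48, and CDC6 at 139, 140 and 140 CPM against 82.2, 97.3 and 94.6 CPM, with the 3 RC48 libraries close together in both. After GC correction 28 of the 41 were called lower, against 3.80% of all genes. Before it the 45 mitotic members had the lower median log2 fold change, -0.51. The order turned with the correction, to -0.47 for the replication genes and -0.36 for the members. Corrected median log2 ratios of the replication genes were -0.44, -0.41 and -0.44 in RC48 replicates 1, 2 and 3. Those of the members were -0.53, -0.25 and -0.29. Values before the correction ran from CCNE2 (cyclin E2) at -0.92 to POLD1, the catalytic subunit of DNA polymerase delta, at 0.18. In RC48 replicate 2, 40 of the 41 were below every Control library (29.1% of all genes), where 36 of the 45 mitotic members were, with a median log2 ratio of -0.21. The difference between the lists was not tested.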
